A study of Mus musculus with 6 samples.

Results

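The genes described here are 10 Hippo pathway effectors and target genes, chosen by symbol for their place in the pathway: the coactivators *Yap1* and *Wwtr1*, the factors *Tead1*, *Tead2*, *Tead3* and *Tead4*, and the target genes *Ccn1*, *Ccn2*, *Lats2* and *Amotl2*. They are 10 of the 19505 named genes on the array, and each had 1 probe set. RNA was measured in luminal mammary epithelial cells sorted by flow cytometry for high or low reporter signal. The Sox9-GFP-high sort had 3 arrays, and so did the Sox9-GFP-low sort. Cells of both sorts came from Sox9-GFP;C3(1)/Tag females of about 3 months in the FVB/NJ background, before overt tumors. Both transgenes were therefore present in both sorts: C3(1)/Tag expresses the SV40 large T antigen, a viral oncoprotein, from the promoter of the rat prostatein C3(1) gene, and Sox9-GFP is a transgenic EGFP reporter of *Sox9*, so the sort was on the reporter and not on SOX9 protein. A group without C3(1)/Tag was not analysed here. The glands came from 3 animals, but the labels tie no array to an animal, and the sources used here do not say whether glands were pooled. The p-values below measure the spread between these arrays, which may be technical in part. Each array measured a sorted population in bulk, so fewer cells with a transcript and less RNA per cell cannot be told apart.

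The Hippo pathway restrains growth in epithelia through a kinase cascade, in which the MST kinases act on the LATS kinases and LATS kinases phosphorylate the paralogous coactivators YAP (*Yap1*) and TAZ (*Wwtr1*), which keeps them out of the nucleus. Unphosphorylated YAP and TAZ bind the TEAD DNA-binding factors and switch on target genes, among them matricellular CCN genes and negative regulators of the pathway itself. In the mammary gland the pathway is known for its links to stem and progenitor activity, to basal features and to tissue stiffness, and much of its regulation lies in the phosphorylation and location of the proteins, which mRNA does not show.

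The arrays were alike in overall level, with medians from 5.15 to 5.21 on the log2 scale, and any pair of arrays correlated at 0.992 to 0.994 within a sort and at 0.979 to 0.988 between sorts (Pearson's r, across probe sets). *Sox9* itself checked the sort, with log2 values of 14.42, 13.77 and 14.46 in Sox9-GFP-high cells, against 13.36, 12.82 and 13.44 in Sox9-GFP-low cells, a difference of 1.01 ± 0.25 (SE, n = 3 each; limma adjusted p = 0.036). The sorts did not overlap for *Sox9*, although its call was lost without any 1 array other than Sox9-GFP-high replicate 2 (adjusted p from 0.0547 to 0.128). Between arrays of the same number *Sox9* differed by 1.07, 0.95 and 1.02, and limma with the array number as a block gave an adjusted p of 0.00475. Luminal markers were bright in both sorts, with a mean log2 value over 10 genes of 14.0 to 14.36 in Sox9-GFP-high and 14.02 to 14.47 in Sox9-GFP-low arrays. All 7 measured immune markers were below the array median on all 6 arrays.

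Of the 10 effector and target genes, only *Ccn2* passed the test, and it was higher in Sox9-GFP-high cells. None was called lower, and 9 did not pass. *Wwtr1*, *Ccn1* and *Tead3* were higher on every Sox9-GFP-high than on any Sox9-GFP-low array, and *Yap1* was lower on every one, but these differences did not pass the adjustment over all 22206 probe sets. Of all probe sets 14.1% were higher and 11.4% lower without overlap between the sorts. A call was an adjusted p under 0.05 from limma, a linear model fit with a moderated spread, after Benjamini-Hochberg adjustment. Across the whole array 4.00% of probe sets were called higher and 3.20% lower, so 1 call among 10 genes is a result about *Ccn2* and not about the set. The same single gene was called when the array number was taken as a block, a fit that called 6.32% of probe sets higher and 4.99% lower.

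The differences of the coactivators had opposite signs. *Wwtr1*, which encodes TAZ, had log2 values of 14.04, 13.53 and 13.76 in Sox9-GFP-high cells, against 13.24, 13.12 and 13.47 in Sox9-GFP-low cells. The lowest Sox9-GFP-high array thus lay just above the highest Sox9-GFP-low array. The difference was 0.50 ± 0.19 (SE, n = 3 each; 95% interval 0.07 to 0.93), or 1.41-fold, with a limma adjusted p of 0.169. *Yap1*, which encodes YAP, had log2 values of 5.65, 5.69 and 5.43 in Sox9-GFP-high cells, against 5.99, 6.76 and 5.99 in Sox9-GFP-low cells. All 3 Sox9-GFP-high arrays were below all Sox9-GFP-low arrays, of which replicate 2 stood highest. The difference was -0.66 ± 0.23 (SE, n = 3 each; 95% interval -1.17 to -0.14), which is 1.58-fold lower, with a limma adjusted p of 0.128 and of 0.0599 with the array number as a block.

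The paralogs were also set against each other within each array. The log2 value of *Wwtr1* minus that of *Yap1* was 8.39, 7.83 and 8.34 in Sox9-GFP-high cells, against 7.24, 6.36 and 7.48 in Sox9-GFP-low cells. Only the change of this value between sorts can be read, since the brightness of different probes is not a measure of relative abundance. It was larger on every Sox9-GFP-high array, by 1.16 on average, a 2.23-fold shift of the ratio towards *Wwtr1*. Between arrays of the same number it was larger by 1.15, 1.47 and 0.86. Since each gene had already separated the sorts, in opposite directions, this value could not overlap between them and no test of it is given. *Yap1* was dim, and on the Sox9-GFP-high arrays it lay just above the array medians of 5.15 to 5.21. Without a background signal the size of this shift in RNA cannot be said.

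**Figure D1:**
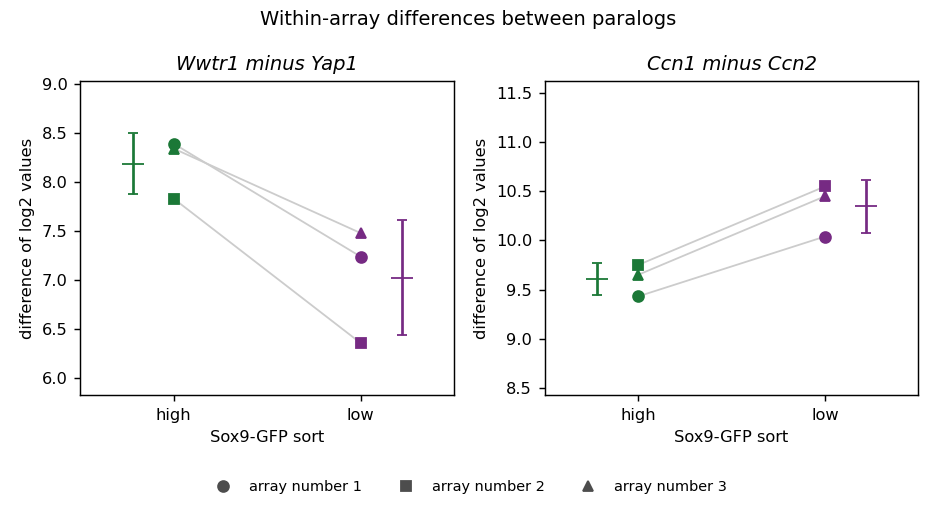
Difference between the log2 values of 2 paralogs on the same array, for Sox9-GFP-high (left) and Sox9-GFP-low (right) in each panel, with the mean and SD of 3 arrays and lines joining arrays of the same number. *Wwtr1* minus *Yap1* averaged 8.19 ± 0.31 in Sox9-GFP-high and 7.03 ± 0.59 in Sox9-GFP-low cells (SD, n = 3 each). *Ccn1* minus *Ccn2* averaged 9.61 ± 0.16 in Sox9-GFP-high and 10.35 ± 0.27 in Sox9-GFP-low cells (SD, n = 3 each).

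**Figure D2:**
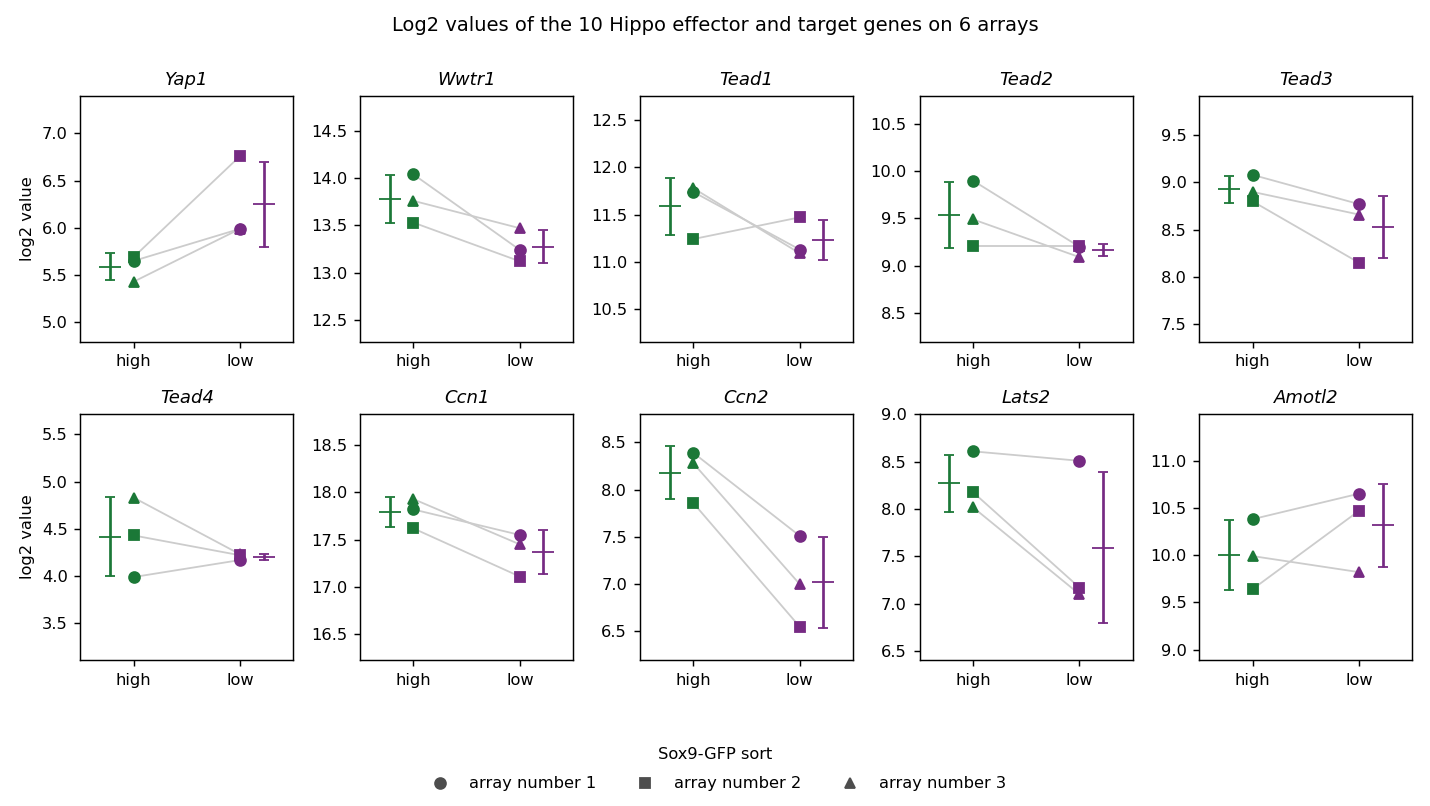
Log2 values of the 10 Hippo effector and target genes on the 6 arrays, Sox9-GFP-high left and Sox9-GFP-low right in each panel. The y axes span the same number of log2 units but start at different values. Points are arrays, with grey lines joining arrays of the same number, and bars are the mean and SD of 3 arrays. *Ccn2* shows the widest gap, at 7.86 or more on Sox9-GFP-high arrays and 7.51 or less on Sox9-GFP-low arrays, while *Yap1* lies lower on all Sox9-GFP-high arrays.

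The TEAD genes, which encode the DNA-binding partners of YAP and TAZ, all had positive differences, and none passed the test. *Tead1* had log2 values of 11.74, 11.24 and 11.78 in Sox9-GFP-high cells, against 11.13, 11.47 and 11.09 in Sox9-GFP-low cells, and the sorts overlapped through both arrays numbered 2. Its difference was 0.36 ± 0.21 (SE, n = 3 each; 95% interval -0.10 to 0.82; limma adjusted p = 0.38). *Tead2* had log2 values of 9.90, 9.21 and 9.49 in Sox9-GFP-high cells, against 9.20, 9.21 and 9.09 in Sox9-GFP-low cells. The Sox9-GFP-low arrays lay close together (SD 0.07) and the Sox9-GFP-high arrays were spread above them (SD 0.35), with replicate 2 at the same level as the Sox9-GFP-low cells. The difference of *Tead2* was 0.36 ± 0.20 (SE, n = 3 each; 95% interval -0.09 to 0.82; limma adjusted p = 0.365).

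*Tead3* had log2 values of 9.08, 8.80 and 8.90 in Sox9-GFP-high cells, against 8.77, 8.15 and 8.66 in Sox9-GFP-low cells. It was the TEAD gene whose sorts did not overlap, with Sox9-GFP-high replicate 2 just above Sox9-GFP-low replicate 1. Its difference was 0.40 ± 0.21 (SE, n = 3 each; 95% interval -0.06 to 0.86; limma adjusted p = 0.321). *Tead4* was below the array median on all 6 arrays, with log2 values of 3.99, 4.43 and 4.83 in Sox9-GFP-high cells, against 4.17, 4.22 and 4.23 in Sox9-GFP-low cells. Its sorts overlapped, and the difference of 0.21 ± 0.22 (SE, n = 3 each; 95% interval -0.28 to 0.70) had a limma adjusted p of 0.682. The deposited values hold no background signal, so whether *Tead4* was above background cannot be said. The intervals of all 4 TEAD genes include 0 and reach up to between 0.70 and 0.86, so these data show neither equal levels nor a difference.

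The target genes *Ccn1* and *Ccn2*, which encode the secreted matricellular proteins CYR61 and CTGF and are widely used readouts of YAP and TAZ, were both higher on all Sox9-GFP-high arrays. *Ccn2* had log2 values of 8.39, 7.86 and 8.28 in Sox9-GFP-high cells, against 7.51, 6.55 and 7.00 in Sox9-GFP-low cells. The sorts were separated by a gap, with the lowest Sox9-GFP-high and the lowest Sox9-GFP-low array both numbered 2. The difference was 1.16 ± 0.26 (SE, n = 3 each; 95% interval 0.59 to 1.73), or 2.23-fold, with a limma adjusted p of 0.0237. Between arrays of the same number it was 0.88, 1.31 and 1.28.

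The size of the *Ccn2* difference held in every fit that left out 1 array (0.92 to 1.40), but its call did not. In limma without the block, leaving out replicate 1 or 3 of the Sox9-GFP-high arrays gave an adjusted p of 0.0828 or 0.0835, and leaving out replicate 2 or 3 of the Sox9-GFP-low arrays one of 0.0708 or 0.0693. The call was kept without either remaining array. With the array number as a block it had an adjusted p of 0.00346 on all arrays, and was kept without each number in turn (limma adjusted p of 0.0057, 0.00769 and 0.00374).

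*Ccn1* had log2 values of 17.82, 17.62 and 17.93 in Sox9-GFP-high cells, against 17.55, 17.11 and 17.45 in Sox9-GFP-low cells. The groups did not overlap, but the gap was narrow. The difference was 0.42 ± 0.19 (SE, n = 3 each; 95% interval 0.00 to 0.84), or 1.34-fold, with a limma adjusted p of 0.237. These values lay near the top of the range of the arrays, whose highest value was 18.85. Within arrays, *Ccn1* minus *Ccn2* was 9.43, 9.75 and 9.65 in Sox9-GFP-high cells, against 10.04, 10.55 and 10.45 in Sox9-GFP-low cells. The gap was smaller on every Sox9-GFP-high array, by 0.74 log2 units in the mean (exact permutation p = 0.1, two-sided, the smallest for 3 arrays against 3) and by 0.57 after quantile normalization. With *Ccn1* near the top of the range, this value does not show by how much the RNA ratio differed.

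*Lats2* and *Amotl2* are target genes that also restrain YAP and TAZ, the first as a kinase of the cascade and the second as an angiomotin family protein that holds YAP at junctions. *Lats2* had log2 values of 8.61, 8.18 and 8.02 in Sox9-GFP-high cells, against 8.51, 7.17 and 7.10 in Sox9-GFP-low cells. Sox9-GFP-low replicate 1 lay within the Sox9-GFP-high range, well above both other Sox9-GFP-low arrays. Over all arrays the difference was 0.68 ± 0.35 (SE, n = 3 each; 95% interval -0.10 to 1.46; limma adjusted p = 0.32). Without Sox9-GFP-low replicate 1 it was 1.14 with an adjusted p of 0.0227, and with the array number as a block and number 1 left out it was 0.96 with an adjusted p of 0.0229. *Lats2* is thus a gene whose call turned on 1 array.

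*Amotl2* was the target gene without a positive difference. It had log2 values of 10.38, 9.64 and 9.99 in Sox9-GFP-high cells, against 10.65, 10.47 and 9.82 in Sox9-GFP-low cells. The sorts overlapped, with Sox9-GFP-low replicate 3 low and Sox9-GFP-high replicate 1 high. The difference was -0.31 ± 0.26 (SE, n = 3 each; 95% interval -0.90 to 0.27; limma adjusted p = 0.582).

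**Figure D3:**
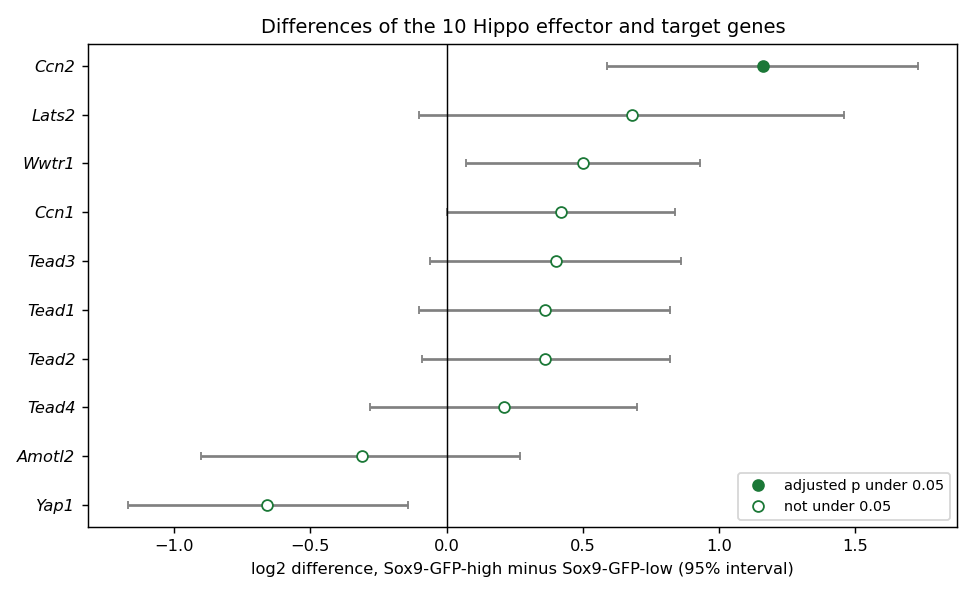
Difference between the mean log2 value of 3 Sox9-GFP-high and 3 Sox9-GFP-low arrays for each of the 10 genes (x axis, positive where higher in Sox9-GFP-high cells), with its 95% interval from limma. *Ccn2* at 1.16 is the filled point, whose adjusted p was under 0.05, and *Yap1* at -0.66 and *Amotl2* at -0.31 lie left of 0.

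Over the 10 genes, 8 differences were positive, against 11446 of 22206 probe sets over the whole array, and the median difference was 0.38, against 0.01 over all probe sets. Leaving out each array in turn gave a median of 0.34 to 0.52 with 8 positive differences each time. Groups that did not overlap and lay higher in Sox9-GFP-high cells were found for 4 of the 10 genes, against 14.1% of all probe sets, and lower for 1 of 10, against 11.4%. At an unadjusted p under 0.05, 4 of the 10 passed, against 20.6% of all probe sets. The genes are not independent of each other, and these counts are given as a description with no test over the set.

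The 3 genes whose pattern over the 6 arrays lay nearest to *Ccn2*, by the root mean square difference of values centred on each gene's mean, were *Sema3f*, *Coro1c* and *N4bp3* out of 19504 genes. *Sema3f*, a secreted semaphorin, differed from the *Ccn2* pattern by 0.0836, *Coro1c*, an actin-binding coronin, by 0.0943, and *N4bp3* by 0.113 log2 units. They differed between the sorts by 1.12, 1.05 and 1.20 in that order, each lowest on Sox9-GFP-low replicate 2 as *Ccn2* was. Because they were picked by likeness to *Ccn2* on these same arrays, such values follow from the choice and no test of them is given.

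To show where the TEAD motif lies in these genes, the promoter windows of the RefSeq table (GRCm38.p6, 250 bases before to 50 bases after a start site) were searched for the TEAD core motif GGAATG on both strands, so that CATTCC also counted. *Ccn2*, *Tead1* and *Tead4* were not searched. Windows were found for the other 7 of the 10 genes, and 6 of these 7 (85.7%) held the motif, against 15.3% of 15691 genes on the array with a window. *Tead2* was the gene without a match. Of the further target genes described below, 6 of 17 with a window (35.3%) held the motif, and the windows of *Nt5e* and *Rbms3* held none. The stretches below are those of the coactivators and of the target genes with a match before the start site, and of *Axl* and *Ptpn14*, which are further target genes called higher. Capitals mark the motif, and each stretch reads 5′ to 3′ on the strand of the gene.
Yap1: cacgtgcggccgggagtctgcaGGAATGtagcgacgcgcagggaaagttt
Wwtr1: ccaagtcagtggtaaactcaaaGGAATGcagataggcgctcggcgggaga
Ccn1: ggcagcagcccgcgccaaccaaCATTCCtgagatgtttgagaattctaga
Amotl2: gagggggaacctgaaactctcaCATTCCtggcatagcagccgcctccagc
Axl: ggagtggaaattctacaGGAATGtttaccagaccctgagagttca
Ptpn14: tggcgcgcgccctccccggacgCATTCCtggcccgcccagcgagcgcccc

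The windows that hold them are chr9:8004547-8004846 on the minus strand for *Yap1*, chr3:57575861-57576160 (minus) for *Wwtr1*, chr3:145649936-145650235 (minus) for *Ccn1* and chr9:102717554-102717853 (plus) for *Amotl2*. For *Axl* the window is chr7:25788684-25788983 (minus) and for *Ptpn14* chr1:189728018-189728317 (plus). The first base of the motif lies at -141 in *Yap1*, -136 in *Wwtr1*, -103 in *Ccn1*, -65 in *Amotl2*, -233 in *Axl* and -146 in *Ptpn14*, counted from the start site. From another start site of *Wwtr1* the same match lies at -170. *Lats2* held a match at 5 and *Tead3* held several in different windows. *Yap1* and *Amotl2*, which had negative differences, held the motif as *Wwtr1* and *Ccn1* did. A match is a description of the letters, and no binding was measured here.

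The rest of the Hippo pathway, from the kinase cassette to its upstream scaffolds, was measured for 44 of 50 listed genes. In Sox9-GFP-high cells *Ptpn14* and *Frmd6* were higher, none was called lower and 42 did not pass, against 4.00% of all probe sets called higher. The median difference of the list was 0.10, with 31 of 44 differences positive and a range of -0.67 to 1.20. With the array number as a block, 6 genes were called higher (*Ajuba*, *Frmd6*, *Map4k4*, *Patj*, *Ptpn14* and *Strn4*) and none lower, against 6.32% of all probe sets.

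*Ptpn14*, a tyrosine phosphatase family protein that binds YAP and is itself a YAP target gene, had log2 values of 7.51, 7.34 and 7.40 in Sox9-GFP-high cells, against 6.13, 6.55 and 5.96 in Sox9-GFP-low cells. The Sox9-GFP-high arrays lay close together (SD 0.09), and the difference was 1.20 ± 0.19 (SE, n = 3 each; 2.30-fold; limma adjusted p = 0.00562). The call was kept without any 1 array. *Frmd6*, a FERM-domain protein that acts upstream of the kinases, had log2 values of 10.84, 10.42 and 10.74 in Sox9-GFP-high cells, against 9.77, 9.50 and 10.04 in Sox9-GFP-low cells. Its sorts did not overlap and it differed by 0.90 ± 0.20 (SE, n = 3 each; limma adjusted p = 0.0261). The call of *Frmd6* was lost without Sox9-GFP-high replicate 1 (0.0862) or 3 (0.0911) and without Sox9-GFP-low replicate 1 (0.0671) or 2 (0.0882).

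*Amot*, the founding angiomotin, was represented by the brighter of 2 probe sets. Its log2 values were 8.20, 6.82 and 6.62 in Sox9-GFP-high cells, against 6.13, 6.28 and 6.28 in Sox9-GFP-low cells, so that replicate 1 of Sox9-GFP-high cells stood far above the rest. The difference of 0.98 did not pass (limma adjusted p = 0.136) and was 0.49 without that array, while the mean of its probe sets differed by 0.87. *Amotl1*, of the same family, had the lowest difference of the list, at -0.67 (limma adjusted p = 0.0896).

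*Ajuba*, a LIM protein that inhibits the LATS kinases, shows how the arrays varied by number. Its log2 values were 13.75, 11.65 and 13.20 in Sox9-GFP-high cells, against 12.84, 11.06 and 12.56 in Sox9-GFP-low cells. Both arrays numbered 2 were low, and the sorts overlapped, while each Sox9-GFP-high array lay above its own number by 0.91, 0.59 and 0.64. The adjusted p was 0.545 in limma without the block and 0.0271 with it. *Patj*, a polarity scaffold, and *Strn4*, a subunit of the STRIPAK phosphatase complex, also passed with the block only, at 0.76 (limma adjusted p = 0.145, with the block 0.0404) and 0.73 (0.0858, with the block 0.0443).

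The core of the cassette did not pass in either fit. *Stk4*, the measured MST kinase, differed by -0.27 (95% interval -0.75 to 0.22), *Lats1*, the paralog of *Lats2*, by 0.10 (-0.30 to 0.49), and *Sav1*, the MST scaffold, by 0.05 (-0.32 to 0.41). *Nf2*, which encodes the upstream regulator merlin, differed by 0.06 (-0.40 to 0.52). *Mob1a*, a LATS cofactor, was higher on all Sox9-GFP-high arrays by 0.48 (0.06 to 0.91), with a limma adjusted p of 0.177.

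Other partners of TEAD and of YAP and TAZ were measured for 10 of 12 listed genes, of which 0 were called higher and 1, *Smad3*, was called lower, against 4.00% of all probe sets called higher and 3.20% lower. At an unadjusted p under 0.05, 3 of the 10 passed, against 20.6% of all probe sets. The methods' t-test without adjustment called 1 of them higher and 2 lower, against 9.54% and 7.42% of all probe sets. These single calls are read as results on the named genes and not on the list. *Smad3*, a TGF-beta signal transducer that binds TAZ and YAP, had log2 values of 12.15, 11.68 and 11.10 in Sox9-GFP-high cells, against 12.84, 12.61 and 12.56 in Sox9-GFP-low cells. The sorts did not overlap, and the difference was -1.02 ± 0.25 (SE, n = 3 each), which is 2.03-fold lower (limma adjusted p = 0.0389). Only without Sox9-GFP-high replicate 1 did 1 left-out array keep this call (adjusted p = 0.0172, and 0.081 to 0.111 without each other array). *Smad2*, its paralog, differed by 0.37 and did not pass.

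Of the remaining cofactor genes, *Vgll3* (0.65) and *Vgll1* (0.32), which encode Vestigial-like proteins that compete for TEAD, overlapped between the sorts. The nuclear receptor coactivators *Ncoa2* (0.57) and *Ncoa3* (-0.52) did not overlap, in opposite directions, and neither passed (limma adjusted p of 0.125 and 0.102). The median of the list was 0.11.

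Further target genes of YAP, TAZ and TEAD were measured for 25 of 27 listed genes. In Sox9-GFP-high cells *Axl*, *Nt5e*, *Ptpn14* and *Rbms3* were higher, *Asap1* was lower and 20 did not pass, against 4.00% of all probe sets called higher and 3.20% lower. The median difference was 0.48, with 18 of 25 positive and a range of -1.17 to 1.93. Groups did not overlap and lay higher in Sox9-GFP-high cells for 11 of the 25, against 14.1% of all probe sets, and lower for 2, against 11.4%. With the array number as a block 11 were called higher, against 6.32% of all probe sets, and *Asap1* alone was called lower. The list is of target genes named in various cell types, was drawn up with earlier results of these data known, and shares *Ptpn14*, *Ajuba* and *Fjx1* with the pathway list.

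*Axl*, a receptor tyrosine kinase, had log2 values of 8.63, 7.86 and 8.19 in Sox9-GFP-high cells, against 6.97, 5.32 and 6.59 in Sox9-GFP-low cells. All Sox9-GFP-high arrays were well above all Sox9-GFP-low arrays, and the difference of 1.93 ± 0.38 (SE, n = 3 each; 3.82-fold; limma adjusted p = 0.0143) was the largest of the list. It lost its call without Sox9-GFP-high replicate 1 (adjusted p = 0.0562) and kept it without each other array. *Nt5e*, which encodes the surface enzyme CD73, had log2 values of 9.35, 9.85 and 8.74 in Sox9-GFP-high cells, against 8.24, 6.30 and 7.83 in Sox9-GFP-low cells. Its difference of 1.86 ± 0.45 (SE, n = 3 each; 3.63-fold; limma adjusted p = 0.0366) rested in part on the arrays numbered 2, which differed by 3.55. Without both of them it was 2.02-fold (adjusted p = 0.103). *Nt5e* also lost its call without Sox9-GFP-high replicate 1 (0.0996) or 2 (0.113) and without Sox9-GFP-low replicate 2 (0.0535) or 3 (0.0607).

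*Rbms3*, an RNA-binding protein gene, had log2 values of 12.47, 12.05 and 12.54 in Sox9-GFP-high cells, against 11.28, 11.27 and 11.82 in Sox9-GFP-low cells. The sorts did not overlap, with a difference of 0.90 ± 0.22 (SE, n = 3 each; limma adjusted p = 0.0351), and the call was kept without Sox9-GFP-high replicate 2 or Sox9-GFP-low replicate 3 and lost without each other array (0.105 to 0.125). *Asap1*, a GTPase-activating protein gene for ARF proteins, went the other way. It had log2 values of 5.62, 6.52 and 5.77 in Sox9-GFP-high cells, against 7.30, 7.24 and 6.88 in Sox9-GFP-low cells, and fell by 1.17 ± 0.25 (SE, n = 3 each; limma adjusted p = 0.0211). The call of *Asap1* was kept without Sox9-GFP-high replicate 2 or Sox9-GFP-low replicate 3 and lost without each other array (0.065 to 0.0818).

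*Ankrd1*, an ankyrin repeat protein gene and a common YAP readout, lay at the edge of the threshold. Its log2 values were 13.07, 12.95 and 13.61 in Sox9-GFP-high cells, against 11.95, 10.17 and 12.31 in Sox9-GFP-low cells. The sorts did not overlap, and the difference was 1.74 ± 0.47 (SE, n = 3 each; 3.33-fold; limma adjusted p = 0.0539, and 0.00677 with the array number as a block). Without Sox9-GFP-low replicate 2 it was 1.08 (2.12-fold; adjusted p = 0.0455), and the call was also gained without Sox9-GFP-low replicate 3 (2.15; adjusted p = 0.0307). Also called with the block only were *Ajuba*, *Birc5*, *Crim1*, *Edn1*, *Tgfb2* and *Thbs1*, whose differences lay between 0.71 and 0.89. *Birc5* is in addition a gene of mitosis, and *Thbs1*, *Edn1* and *Tgfb2* encode secreted factors.

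**Figure D4:**
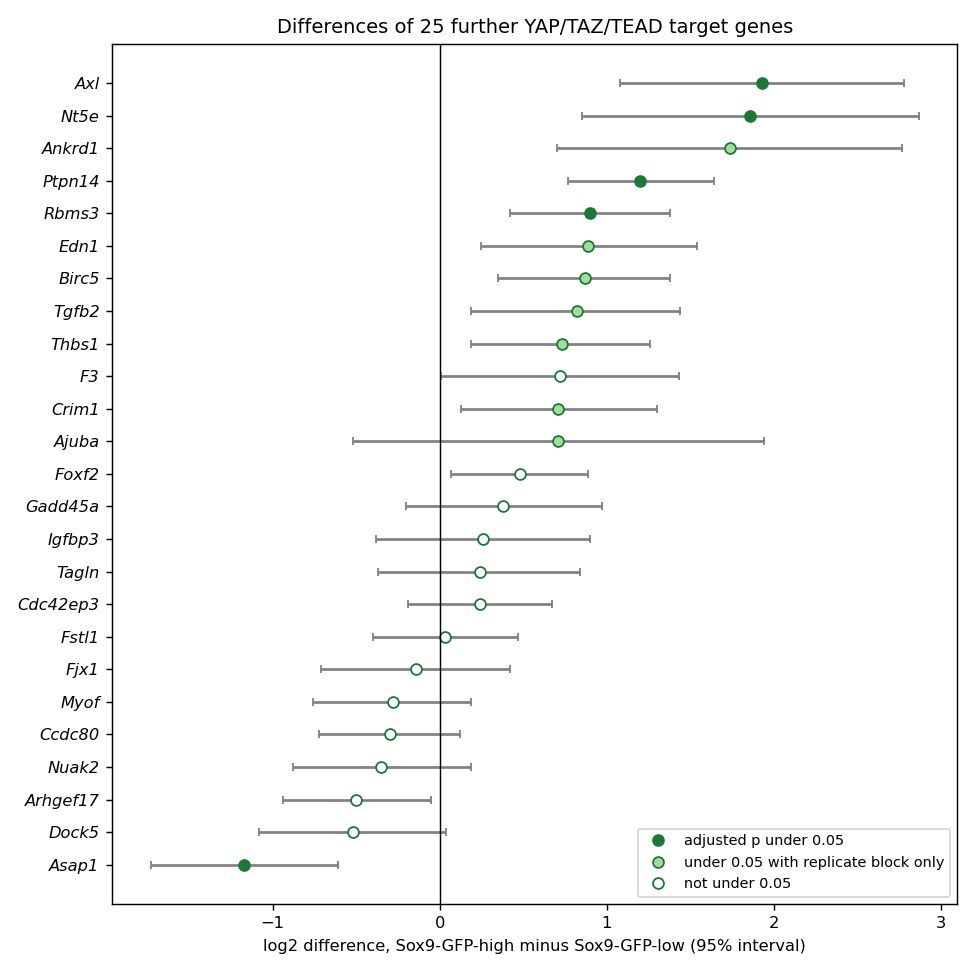
Difference in mean log2 value between 3 Sox9-GFP-high and 3 Sox9-GFP-low arrays for 25 further target genes (x axis, positive where higher in Sox9-GFP-high cells), with 95% intervals from limma without the block. Dark points passed without the block and light points with the array number as a block only. *Axl* at 1.93 and *Asap1* at -1.17 mark the ends.

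Sox9-GFP-low replicate 2 was the lowest of the 6 arrays for 14 of these 25 genes (56.0%) and for 4 of the 10 effector and target genes, against 20.4% of all probe sets. Without it the median difference of the further targets was 0.29, with 17 of 25 positive. Over all 6 fits without 1 array the median was 0.29 to 0.63. Without Sox9-GFP-low replicate 2, 4 of the 25 were called higher, against 2.22% of all probe sets, and none lower, against 2.03%. These were not the same 4 genes: *Axl* and *Ptpn14* kept their calls, *Nt5e* and *Rbms3* lost them, and *Ankrd1* and *Birc5* (1.08; limma adjusted p = 0.0251) passed.

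Genes of other cell types were looked at beside these results, since several target genes are also made by basal and stromal cells. The mean log2 value over 12 basal markers was 6.70 to 7.44 in Sox9-GFP-high arrays and 6.34 to 6.98 in Sox9-GFP-low arrays, with *Actg2*, *Krt5*, *Myh11*, *Myl9* and *Oxtr* below the array median on all 6. *Krt17*, a basal keratin, was called higher (2.09; limma adjusted p = 0.0339) and 11 basal markers did not pass, against 4.00% of all probe sets called higher and 3.20% lower. *Mylk* differed by 2.53 without overlap between the sorts, and was below the array median on 2 arrays. It passed with the block only (limma adjusted p = 0.0604, with the block 0.00263), a fit that called 6.32% of all probe sets higher. The study stained the basal keratin KRT14 and also reports higher *Krt14* expression in Sox9-GFP-high cells. On these arrays *Krt14* differed by 0.55, with overlap between the sorts (limma adjusted p = 0.159, with the block 0.0816). Between arrays of the same number it was higher by 0.56, 0.29 and 0.80. *Krt17* differed by 1.43 (2.70-fold) without Sox9-GFP-low replicate 2, and lost its call without Sox9-GFP-high replicate 1 (adjusted p = 0.108) or 3 (0.118). *Tagln*, a contractile gene that stands in both the basal and the target list, differed by 0.24 and did not pass.

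Of 9 measured fibroblast markers *Dcn* was lower (-2.22; limma adjusted p = 0.00122) and none was called higher, against 3.20% of all probe sets called lower and 4.00% higher. With the block *Fn1* and *Postn* were called higher and *Dcn* and *Dpt* lower, against 6.32% of all probe sets higher and 4.99% lower. *Postn* differed by 2.45 without overlap between the sorts (limma adjusted p = 0.0617, with the block 0.000965). *Fn1* differed by 1.49 and *Dpt* by -0.67, both with overlap. The mean log2 value over these markers was 6.64 to 6.92 in Sox9-GFP-high and 6.28 to 6.98 in Sox9-GFP-low arrays, and *Col1a2*, *Col3a1*, *Dpt* and *Pdgfrb* were below the array median on all 6. At an unadjusted p under 0.05, 4 of the 9 passed, against 20.6% of all probe sets.

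Endothelial markers averaged 4.10 to 4.44 in Sox9-GFP-high and 4.27 to 5.10 in Sox9-GFP-low arrays. None of these 8 was called by limma without the block, and 1 passed at an unadjusted p under 0.05, against 20.6% of all probe sets. *Eng* was called lower with the block, against 4.99% of all probe sets. The 7 immune markers averaged 3.58 to 3.68 in Sox9-GFP-high and 3.51 to 3.80 in Sox9-GFP-low arrays, with 0 calls by limma in either fit and 0 at an unadjusted p under 0.05. Of the 10 luminal markers *Krt19* was lower (-1.65; limma adjusted p = 0.0013), against 3.20% of all probe sets. *Krt7* was called higher with the block only, against 6.32% of all probe sets in that fit.

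Tissue dissociation can induce early response genes, of which *Ccn1* is also one. Of 13 listed early response genes, *Fos* was called lower (-1.46; limma adjusted p = 0.0469), against 3.20% of all probe sets. *Nr4a1* differed by 1.28 without overlap between the sorts. It was called higher with the block only (limma adjusted p = 0.0627, with the block 0.0018), against 6.32% of all probe sets in that fit. *Fos* kept its call without Sox9-GFP-high replicate 2 or Sox9-GFP-low replicate 3 and lost it without each other array (0.0776 to 0.137). The mean over these genes was 11.73 to 12.17 in Sox9-GFP-high and 11.83 to 12.19 in Sox9-GFP-low arrays. The part of other cells and of dissociation in the values of the target genes was not tested.

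**Figure D5:**
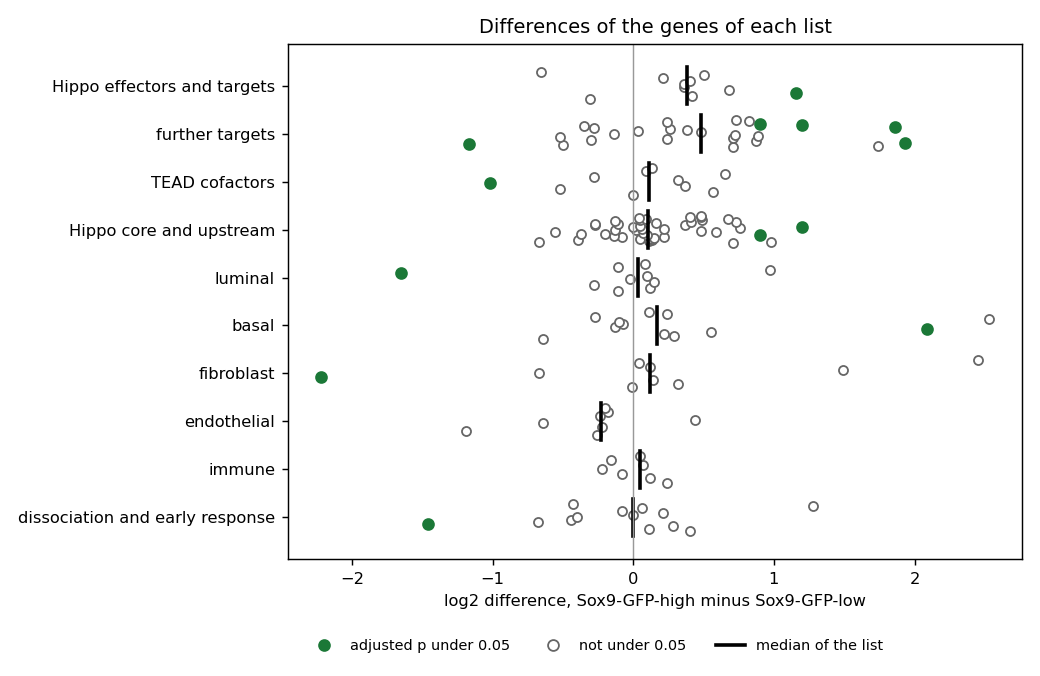
Differences in log2 value, Sox9-GFP-high minus Sox9-GFP-low (x axis), for each gene of the 10 lists (y axis). Filled points had an adjusted p under 0.05 in limma without the block, and black bars are list medians. The medians are 0.38 for the 10 effectors and targets, 0.48 for the further targets, 0.11 for the TEAD cofactors and 0.10 for the pathway genes.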

How the data were processed

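The values used are those the authors deposited, on a log2 scale, for 6 arrays of biotin-labelled total RNA. How they were normalized, and with which software, is not stated for these arrays. For its other array experiment the study names Affymetrix Clariom S Pico mouse arrays. No signal over background was available for dim probe sets, and the number of arrays limits the precision. Of 22206 probe sets, 19572 had 1 gene symbol, 0 had several and 2634 are unnamed here. All 19572 matched a RefSeq table by gene identifier. A gene with several probe sets (55 of 19505) was represented by the one with the highest mean.

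The fit across all probe sets used limma 3.58.1 under R 4.3.3 (lmFit, then eBayes, with two-sided tests), without a block because the study's statistics section names unpaired tests, and adjusted by Benjamini-Hochberg at a threshold of 0.05. Sums and figures were made in Python 3.11.15. The fit was tested on simulated data, with 200 changed probe sets in each of 10 runs. It recovered 37.4% of differences of 1 log2 unit and 88% of those of 2, and 2.7% of its calls were false. A gene that did not pass may therefore still differ. Fewer probe sets were changed in it than the 1599 called in the measured values. The Benjamini-Hochberg adjustment depends on that number, so the recovered shares need not hold for these data. The simulated arrays were independent of each other. In the measured values, after subtracting each sort's mean, arrays of the same number correlated at 0.236, 0.232 and 0.218, and arrays of different numbers at -0.06 or less. The subtraction makes the values for different numbers negative on average where those for the same number are positive, so they add no evidence. On the basis of the same-number values, and not of the labels, the numbers were treated as pairs in a second fit, with a replicate block. Calls made without the block leave this pairing out. The second fit is given where it changes a call or a count, and for some genes where it does not.

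The genes, their lists and the list of alternatives were chosen with earlier results of these data known. Named were all 10 effector and target genes, up to 6 genes per pathway, cofactor and target list with the largest differences, called genes first, *Sox9*, the 3 genes nearest to each called gene of the 10, and called genes of the cell type lists. *Amotl1*, *Stk4*, *Lats1*, *Sav1*, *Nf2*, *Mob1a*, *Krt14*, *Tagln* and the genes called with the block only were added after their values were seen. Some listed genes were not analysed here, and some items are not reported here. Alternatives were the block, leaving out arrays and numbers, quantile normalization, array weights, median centring, a robust prior with a trend, a table without its dimmest 33% of probe sets, the mean over probe sets, a further limit of 1.5-fold, and the methods' t-test.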

Additional observations from a re-analysis of the deposited data

How the results depend on the processing

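Quantile normalization, median centring, leaving out the dimmest probe sets, the trended and robust prior, array weights and the mean over probe sets changed the call of none of the 10 effector and target genes. Of 210 alternative values for these genes, 201 kept direction and call, 7 kept the direction and lost the call, 2 gained it and none reversed. All 7 lost calls were of *Ccn2*, which kept its call in 14 alternatives, and both gained calls were of *Lats2*. The other genes had no call to lose. Without the block, *Ccn2* also lost its call without both arrays numbered 2 (limma adjusted p = 0.0604) or 3 (0.194), and kept it without both numbered 1 (0.0373). *Vgll1* was among the dimmest probe sets and has no value with these left out. The replicate block raised the counts to 1404 probe sets higher and 1108 lower, with 6 pathway genes and 11 further targets higher. It kept 1598 of the 1599 calls made without it, and beyond these counts it changed no other call among the effector, pathway, cofactor and target genes. *Sox9*, *Frmd6*, *Smad3*, *Axl*, *Nt5e*, *Rbms3*, *Asap1* and *Krt17*, which lost calls on leaving out arrays, were called with the block on all arrays (limma adjusted p of 0.000645 to 0.0264). The methods' t-test at an unadjusted p under 0.05 gave 2118 higher and 1647 lower, with 9 pathway genes higher and 2 lower and with 1 cofactor gene higher and 2 lower. *Ankrd1* also passed with median centring (limma adjusted p = 0.0473), without the dimmest probe sets (0.0424) and with array weights (rounded to 0.05). Further targets called higher were 5 with median centring and with the trended robust prior, against 882 and 937 of all probe sets. They were 6 without the dimmest probe sets and with array weights, against 934 and 942. After Benjamini-Hochberg the t-test gave 1 higher and 2 lower, with 0 calls among the effector, pathway, cofactor and target genes. Leaving out arrays or numbers without the block lowered the counts to 231 to 672 probe sets higher and 316 to 563 lower, with fewer arrays in each fit. It gave 0 to 2 of the 10 genes higher, 0 to 3 pathway genes higher and 0 to 1 lower, 0 cofactor genes higher and 0 to 1 lower, and 0 to 4 further targets higher and 0 to 1 lower. Leaving out a number with the block, a change of 2 choices, gave 882 to 1244 probe sets higher and 813 to 1030 lower. It gave 1 to 2 of the 10 genes, 2 to 5 pathway genes, 0 to 1 cofactor genes and 7 to 9 further targets higher, and 0 to 1 pathway genes, 1 cofactor gene and 1 further target lower. The within-array difference *Wwtr1* minus *Yap1* ranged over 0.82 to 1.38 and *Ccn1* minus *Ccn2* over -0.89 to -0.63 without 1 array, and was 1.11 and -0.57 after quantile normalization.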
